A study of Rattus norvegicus with 10 samples.

Results

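The genes described here are the transcription factor genes Myc and Mycn and genes of ribosome biogenesis, measured in the nasal transitional epithelium of rats. Members were taken from a list of 38 genes, and every probe set of the array annotated to 1 of these symbols alone was used. That gave 48 probe sets for 37 of the 14217 genes on the array. Npm1 was the remaining listed gene; its probe sets are annotated to a second symbol as well, so no value is given for it. The DMPT group received N,N-dimethyl-p-toluidine, an aromatic amine used to harden acrylic cements, at 120 mg/kg/day by corn oil gavage for 5 days, and the vehicle group received corn oil alone. All animals were male F344/N rats aged 5 to 6 weeks when dosing began, with 5 arrays per group and a separately numbered animal for each array. The epithelium was cut from sections by laser capture, so each value is an average over all cells in the captured area, and a change in the number of cells of a type cannot be told apart from a change in RNA per cell. Values are log2 expression values per probe set.

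Ribosomes are built in the nucleolus. RNA polymerase I transcribes a long precursor RNA, small nucleolar RNAs carried by protein complexes guide its cleavage and chemical modification, and large assemblies of processing factors shape it into the small and large subunits. MYC is a transcription factor that raises the expression of many of these genes in growing cells, and with its partner MAX it binds the E-box, the DNA sequence CACGTG.

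After DMPT, 5 of the 37 members rose and 0 fell, by between 1.24-fold and 1.36-fold. The 5 were Fbl, Nhp2 and Gar1, of the complexes that modify ribosomal RNA, and Wdr12 and Ddx21, grouped here under large subunit assembly. Differences are log2 DMPT minus vehicle with their standard errors from limma, and a member was said to rise or fall where its Benjamini-Hochberg adjusted p, taken across the 31042 probe sets tested, was under 0.05. Over all 14217 genes, 7.13% rose and 6.77% fell, 13.9% in all. The member count ran from 1 to 5 when each array was left out in turn, and it was 1 without DMPT replicate 2, 3 or 4.

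Small positive differences were common among the members. Of the 37, 29 had a difference above 0, against 49.1% of all genes, and the median member difference was 0.16, against -0.0052 over all genes. The lean was not particular to the members. Differences were above 0 for 34 of 42 ribosomal protein genes, 26 of 28 other MYC target genes and 10 of 19 MYC network genes. On vehicle arrays the mean log2 level was 10.16 to 10.36 for members and 8.86 to 8.99 for all genes. The part of this level in the lean was not tested. The 95% confidence interval lay within 2-fold for all 37 members and within 1.5-fold for 29 of them. The mean over the members, as a log2 difference from the vehicle mean, ran from 0.076 to 0.27 on the DMPT arrays and from -0.074 to 0.13 on the vehicle arrays, so the groups overlapped. The values of the DMPT arrays lay wholly above those of the vehicle arrays for 5 members and wholly below them for 0, against 7.58% and 6.29% of all genes. These 5 were Fbl, Gar1, Wdr12, Ddx21 and Nop56. Nop56 did not pass the test, and the groups overlapped for Nhp2, which rose.

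**Figure D1:**
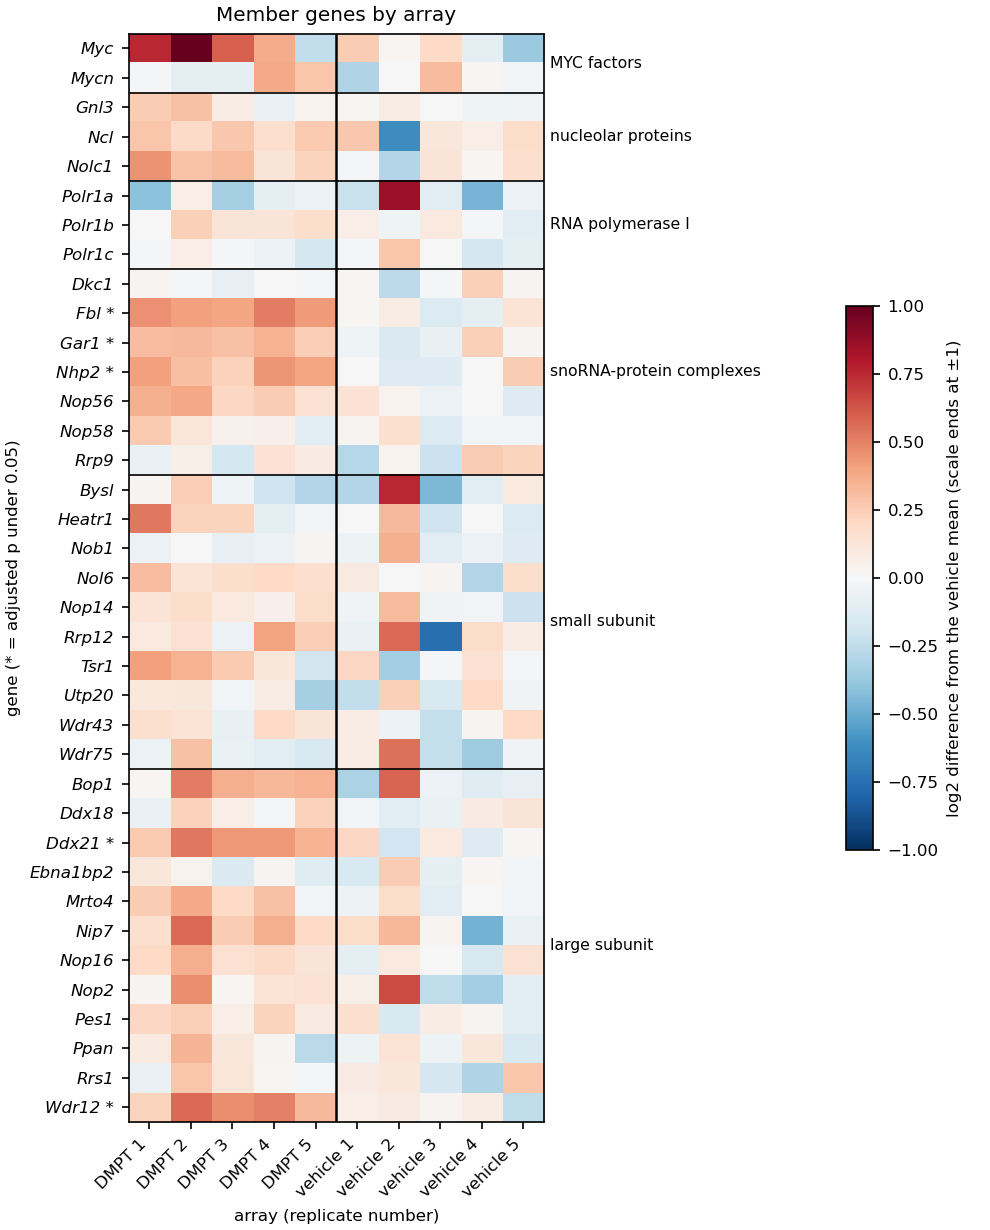
Log2 difference of each of the 37 members from its vehicle mean (colour) on each array (columns, DMPT left of vehicle), grouped by role; an asterisk marks an adjusted p under 0.05. Fbl, Gar1, Nhp2, Wdr12 and Ddx21 are above the vehicle mean on all 5 DMPT arrays, and vehicle replicate 2 stands out for Polr1a, Bysl, Nop2 and Ncl.

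Vehicle replicate 2 lay apart from the other arrays of the series. Its score on the second principal component was -54.4, with the other 9 arrays between -14.9 and 25.8, and it correlated with the rest of its group at 0.975 on average, against at least 0.985 for each other vehicle array. It was the highest vehicle array for 18 of the 37 members (48.6%) and for 44.4% of all genes. Among the 8 members with a negative difference it was the highest vehicle array for 7. Without it, 36 of 37 differences were above 0, against 52.2% of all genes, and Dkc1 was the exception. The median member difference was then 0.13, and 5 members rose and 0 fell, against 9.19% and 6.77% of all genes. Those 5 were Fbl, Nhp2, Wdr12, Ddx21 and Bop1. All DMPT arrays then lay above the vehicle arrays for 7 members, against 11.2% of all genes. They lay wholly below them for 0 members, against 1136 of all 14217 genes.

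Markers of several cell types moved with the groups, and their part in the results on the members was not tested. Of 20 measured markers of dividing cells 18 rose, and their mean log2 level was 10.25 to 10.51 on DMPT arrays and 9.07 to 9.83 on vehicle arrays. Of 7 markers of ciliated cells 6 fell (9.29 to 10.98 on DMPT arrays, 10.73 to 11.99 on vehicle arrays). Of 7 endothelial markers 5 rose (7.49 to 8.64 on DMPT arrays, 6.30 to 7.46 on vehicle arrays). Without vehicle replicate 2 only 2 ciliated markers fell, although all 7 still differed by less than 0. In that fit 4 endothelial markers and again 18 markers of dividing cells rose. Of 8 general epithelial markers 3 rose (12.98 to 13.06 on DMPT arrays, 12.43 to 12.83 on vehicle arrays), and all 8 lay above the lower quartile of the arrays. Of 7 basal cell markers 2 rose and 1 fell, of 11 leukocyte markers 3 rose, of 6 olfactory neuron markers 1 rose and 1 fell, and 0 of 8 stromal and 0 of 6 muscle markers passed. The muscle markers were mostly dim, with 4 of 6 below the lower quartile of the arrays. RNA quality was measured as the mean log2 difference between the 3′ and 5′ control probe sets of GAPDH and beta-actin. It was 1.10 ± 0.19 on DMPT arrays and 1.28 ± 0.13 on vehicle arrays (SD, n = 5 each; two-sided exact permutation test, p = 0.143). With it as a covariate 3 members rose, namely Myc, Fbl and Wdr12, against 5.95% of all genes. In the same fit 1 ciliated marker fell, and 3 endothelial markers and 17 markers of dividing cells rose.

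Since MYC binds the E-box, the promoters of the members were searched for CACGTG, which reads the same on both strands. RefSeq promoter windows (build GRCr8, 250 bases before to 50 after the annotated start) were found for 32 members; those of Myc, Mycn, Bop1, Rrs1 and Wdr43 are not printed here. The motif was present in 13 of the 32 (40.6%), against 24.3% of 103 promoters of other ribosome biogenesis genes and 8.62% of 13242 promoters of genes on the array. The median GC content was 55.7% for members and 59.7% for genes on the array. The motif holds the pair CG, and the median count of that pair per window leaned the other way. It was 22 for members, 21 for other ribosome biogenesis genes and 18 for genes on the array. The list was drawn up around MYC and ribosome biogenesis, so its motif share is not independent of that choice. The part of base composition or of the choice of list in the motif shares was not tested. Each of the 13 held 1 match, 10 of them at most 50 bases before the annotated start or after it. The matches are shown with up to 12 bases on either side, 5′ to 3′ along the gene's strand, with the motif in capitals, so that the flanks can be compared.
Bysl (chr9:20880361-20880390, plus strand): tagccggcttcaCACGTGtaaactttgtgg
Ddx18 (chr13:35295968-35295997, minus strand): ctcggaactgcgCACGTGcatctgtcgctc
Dkc1 (chrX:157751455-157751484, plus strand): agcgtcccggcgCACGTGcgggccccaccc
Ebna1bp2 (chr5:137433552-137433581, plus strand): gcgtcttgctggCACGTGgagtggcagccg
Fbl (chr1:92597416-92597445, plus strand): ggcgcttttttcCACGTGtgaaagcctgag
Gnl3 (chr16:6219790-6219819, minus strand): agttccagttcgCACGTGgcgcccgagacg
Nol6 (chr5:61066289-61066318, minus strand): ggcgtttaggccCACGTGgggagctacggg
Nop2 (chr4:159618992-159619015, plus strand): cttccccaagtgCACGTGgagcgg
Pes1 (chr14:83074284-83074313, plus strand): ccctaagcggggCACGTGcggtaggaagta
Rrp12 (chr1:250655298-250655327, minus strand): gctgagaatacaCACGTGggttctgctgtg
Tsr1 (chr10:60258798-60258827, plus strand): gtttactcggtgCACGTGggcagttagaat
Utp20 (chr7:25102959-25102988, minus strand): cagcactagctaCACGTGagaaaaagcaga
Wdr75 (chr9:55395060-55395089, plus strand): tcactctttctaCACGTGttttaatttgac
The match began 2 bases before the start in Nol6, 3 bases after it in Rrp12 and 21 bases after it in Fbl. Of the 13 members with the motif 1 rose, with a median difference of 0.12, and of the 19 without it 4 rose, with a median of 0.21. These counts are descriptions of short windows and say nothing of binding in this tissue.

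Myc had the largest difference of the members but did not pass the test. Its log2 values were 9.96, 10.24, 9.81, 9.58 and 8.96 on the DMPT arrays and 9.46, 9.23, 9.41, 9.11 and 8.84 on the vehicle arrays. Of the 5 DMPT arrays 4 lay above every vehicle array, and DMPT replicate 5 lay below 4 of them. The difference was 0.50 ± 0.21 or 1.42-fold (95% confidence interval 0.035 to 0.97, adjusted p = 0.168). Without DMPT replicate 5 it was 0.69 and passed (adjusted p = 0.0273), and without DMPT replicate 2 it was 0.37 (adjusted p = 0.33). It also passed in the fit that included RNA quality (0.78, adjusted p = 0.0483). Vehicle replicate 2 had little part in this value, which was 0.51 without it (adjusted p = 0.197).

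Mycn, the MYC paralog best known from embryonic tissue and neuroblastoma, was dim. It was the single member whose mean lay below the lower quartile of the arrays (6.38 to 6.51). Its values were 3.89, 3.81, 3.81, 4.28 and 4.18 with DMPT and 3.60, 3.90, 4.22, 3.92 and 3.88 with vehicle. The groups overlapped, and the difference was 0.088 ± 0.13 (adjusted p = 0.753).

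Of the proteins that carry small nucleolar RNAs, Fbl, Nhp2 and Gar1 rose. Fbl encodes fibrillarin, the methyltransferase of the box C/D complexes, which methylate the ribose of ribosomal RNA. It had 11.64, 11.60, 11.58, 11.70 and 11.61 on DMPT arrays and 11.20, 11.26, 11.05, 11.10 and 11.32 on vehicle arrays. The groups did not overlap, and every DMPT array stood above the highest vehicle array. The rise was 0.44 ± 0.083 or 1.36-fold (adjusted p = 0.00594). It was the member that passed in each of the 10 fits that left out an array, with differences from 0.41 to 0.47, and in all 19 alternatives tried. Its promoter window is shown with the match of the E-box in capitals. The motif was in the windows of 1 of the 5 members that rose and 12 of 27 that did not. Any part of the motif in the rise was not tested.
Fbl promoter (chr1:92597157-92597456, plus strand): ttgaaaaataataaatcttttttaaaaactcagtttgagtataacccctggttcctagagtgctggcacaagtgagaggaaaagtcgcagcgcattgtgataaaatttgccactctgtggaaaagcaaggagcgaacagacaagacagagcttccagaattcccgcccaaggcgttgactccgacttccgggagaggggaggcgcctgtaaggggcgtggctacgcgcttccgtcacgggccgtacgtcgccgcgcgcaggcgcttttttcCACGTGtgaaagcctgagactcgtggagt

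Both other members that rose in this group belong to the box H/ACA complexes, which turn uridines of ribosomal RNA into pseudouridine. For Nhp2, an RNA-binding subunit, the values were 11.11, 11.00, 10.93, 11.14 and 11.09 with DMPT and 10.70, 10.57, 10.57, 10.70 and 10.95 with vehicle. Vehicle replicate 5 reached into the range of the DMPT arrays, and 4 of them lay above it. Nhp2 rose by 0.35 ± 0.096 (adjusted p = 0.0352). Gar1, which encodes the glycine- and arginine-rich subunit, had 11.21, 11.23, 11.20, 11.25 and 11.15 with DMPT and 10.86, 10.76, 10.83, 11.14 and 10.93 with vehicle. The groups did not overlap, with vehicle replicate 4 just under the lowest DMPT array, and Gar1 rose by 0.30 ± 0.089 (adjusted p = 0.0481). Gar1 passed only without vehicle replicate 4 among the 10 omissions, and Nhp2 only without vehicle replicate 2 or 5. Dkc1, the pseudouridine synthase of the same complexes, differed by -0.014 ± 0.096 (95% confidence interval -0.22 to 0.20).

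The core proteins that sit beside fibrillarin gave smaller values. Nop56 differed by 0.27 ± 0.086 with groups that did not overlap, and missed the threshold (adjusted p = 0.0689). Its other probe set differed by 0.37 ± 0.12 (adjusted p = 0.0731). Nop58 differed by 0.075 ± 0.094 (adjusted p = 0.696). Rrp9, which binds the small nucleolar RNA needed for cleavage of the precursor, differed by 0.0071 ± 0.12 (adjusted p = 0.982). Of the 7 members of these complexes, 3 rose and 6 had a positive difference, with a median of 0.27.

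**Figure D2:**
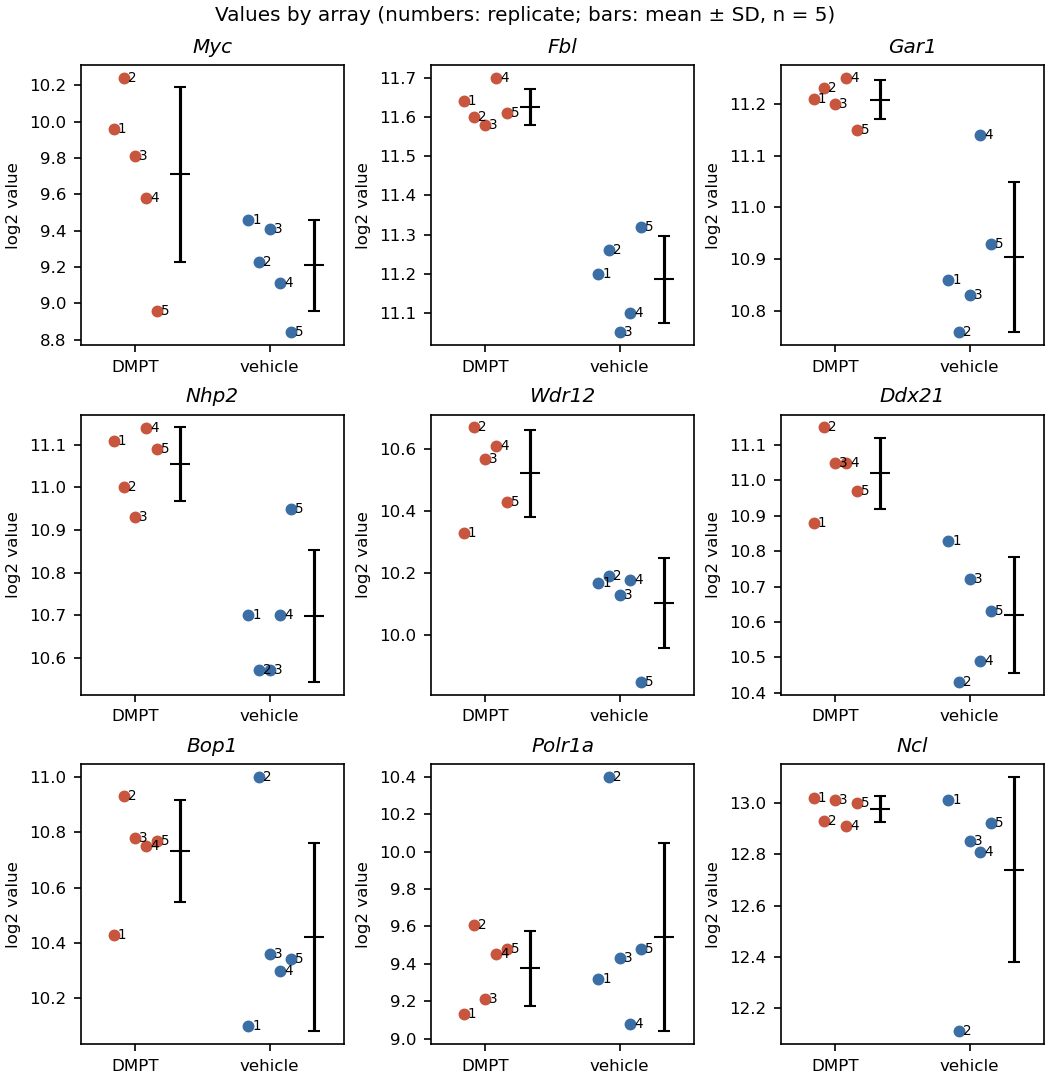
Log2 values of 9 members on each array (points, numbered by replicate) with the mean ± SD of each group (n = 5), DMPT left of vehicle; each panel has its own axis. Fbl, Gar1, Wdr12 and Ddx21 do not overlap between groups, while vehicle replicate 2 is far from the other vehicle arrays for Bop1, Polr1a and Ncl.

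Among the 12 members grouped here under large subunit assembly 2 rose, and 11 had a positive difference, with a median of 0.19. Wdr12, a subunit of the PeBoW complex that matures the large subunit RNA, had 10.33, 10.67, 10.57, 10.61 and 10.43 with DMPT and 10.17, 10.19, 10.13, 10.18 and 9.85 with vehicle. All DMPT arrays lay above all vehicle arrays, 4 of which lay close together from 10.13 to 10.19, with replicate 5 below them. Wdr12 rose by 0.42 ± 0.10 or 1.34-fold (adjusted p = 0.0225). For Ddx21, an RNA helicase of the nucleolus, the values were 10.88, 11.15, 11.05, 11.05 and 10.97 with DMPT and 10.83, 10.43, 10.72, 10.49 and 10.63 with vehicle. The groups did not overlap, and Ddx21 rose by 0.40 ± 0.099 (adjusted p = 0.0241). Its other probe set differed by 0.27 ± 0.18 and did not pass. Wdr12 missed the threshold without DMPT replicates 2, 3 or 4 (adjusted p up to 0.0598), and Ddx21 without those or vehicle replicate 4 (up to 0.0607). The promoter windows of both are shown for comparison with that of Fbl, since neither holds CACGTG.
Wdr12 promoter (chr9:68996762-68997061, minus strand): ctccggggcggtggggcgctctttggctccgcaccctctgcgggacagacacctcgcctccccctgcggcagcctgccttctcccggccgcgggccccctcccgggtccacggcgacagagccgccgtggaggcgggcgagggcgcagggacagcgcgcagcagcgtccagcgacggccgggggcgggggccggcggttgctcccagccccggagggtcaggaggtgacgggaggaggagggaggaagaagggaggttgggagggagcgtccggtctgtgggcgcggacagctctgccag
Ddx21 promoter (chr20:31097189-31097488, minus strand): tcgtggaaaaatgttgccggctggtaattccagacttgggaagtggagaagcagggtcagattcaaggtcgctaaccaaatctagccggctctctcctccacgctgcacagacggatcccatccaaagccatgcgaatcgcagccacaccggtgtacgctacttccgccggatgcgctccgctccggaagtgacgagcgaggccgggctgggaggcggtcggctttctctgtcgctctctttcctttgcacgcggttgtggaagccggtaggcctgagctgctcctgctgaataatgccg

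The partners of Wdr12 in the PeBoW complex did not pass with all arrays. Bop1 had 10.43, 10.93, 10.78, 10.75 and 10.77 with DMPT and 10.10, 11.00, 10.36, 10.30 and 10.34 with vehicle, values printed because vehicle replicate 2 decided the call. That array was the highest of all 10, and the other 4 vehicle arrays lay below every DMPT array. Bop1 differed by 0.31 ± 0.16 (adjusted p = 0.253), and without vehicle replicate 2 it rose by 0.46 ± 0.11 (adjusted p = 0.0195). Pes1 differed by 0.16 ± 0.090 (adjusted p = 0.295) and by 0.13 without that array.

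Of the other large subunit factors, Nop16 had the smallest p. It had 10.70, 10.86, 10.65, 10.69 and 10.63 with DMPT and 10.41, 10.60, 10.50, 10.34 and 10.65 with vehicle, and 4 DMPT arrays lay at or above the highest vehicle array. The difference was 0.21 ± 0.090 (adjusted p = 0.172). Nip7 differed by 0.31 ± 0.15, Mrto4 by 0.22 ± 0.098 and the RNA methyltransferase gene Nop2 by 0.16 ± 0.18, with adjusted p of 0.217, 0.193 and 0.639. Without vehicle replicate 2 the difference of Nop2 was 0.33 (adjusted p = 0.0974). Ddx18, Ppan, Rrs1 and Ebna1bp2 differed by 0.088, 0.062, 0.064 and -0.019, and none of these 4 passed.

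RNA polymerase I itself was measured through 3 subunits, none of which passed. Polr1a, the largest subunit, had 9.13, 9.61, 9.21, 9.45 and 9.48 with DMPT and 9.32, 10.40, 9.43, 9.08 and 9.48 with vehicle. Vehicle replicate 2 was 0.92 above the next vehicle array. The difference of -0.17 ± 0.21 (adjusted p = 0.703) was 0.050 ± 0.12 without that array.

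The second largest subunit, Polr1b, had 8.83, 9.07, 8.96, 8.96 and 9.01 with DMPT and 8.90, 8.79, 8.93, 8.81 and 8.73 with vehicle. Although 4 DMPT arrays were above every vehicle array, the difference was 0.13 ± 0.082 (adjusted p = 0.357). Polr1c, a subunit shared with RNA polymerase III, had 11.04, 11.12, 11.04, 11.00 and 10.88 with DMPT and 11.04, 11.33, 11.06, 10.88 and 10.97 with vehicle. The groups overlapped, with a difference of -0.039 ± 0.098 (95% confidence interval -0.25 to 0.18).

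By limma on the probe set with the highest mean, 0 of the 10 small subunit assembly factors rose or fell. On these probe sets 0 had an unadjusted p under 0.05, with a median difference of 0.12 and a range from -0.052 to 0.19. A secondary probe set of Wdr43 rose by 0.45 ± 0.093 (adjusted p = 0.00971). A secondary probe set of Rrp12 differed by 0.54 ± 0.21 (limma unadjusted p = 0.0258) and did not pass. Nol6, a component of the small subunit processome, had 10.15, 9.98, 10.02, 10.04 and 10.01 with DMPT and 9.93, 9.85, 9.87, 9.55 and 10.02 with vehicle. The groups overlapped through vehicle replicate 5, and the difference was 0.19 ± 0.099 (adjusted p = 0.258). Tsr1, a late assembly factor, had 11.60, 11.54, 11.45, 11.30 and 11.01 with DMPT and 11.40, 10.85, 11.18, 11.34 and 11.18 with vehicle. Above every vehicle array lay 3 of the DMPT arrays, with the rest inside the vehicle range, and the difference was 0.19 ± 0.14 (adjusted p = 0.448).

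Heatr1, a processome scaffold also needed for transcription by RNA polymerase I, had 10.25, 9.95, 9.95, 9.64 and 9.70 with DMPT and 9.73, 10.05, 9.53, 9.73 and 9.59 with vehicle. Its groups overlapped as well, with a difference of 0.17 ± 0.14 (adjusted p = 0.493). Rrp12, Nop14 and Wdr43 differed by 0.17, 0.13 and 0.11. Bysl, Nob1, Wdr75 and Utp20 had differences between -0.052 and -0.013, and for each of these 4 the difference was between 0.045 and 0.14 without vehicle replicate 2. Among the 10 members of this group, 6 differences were above 0 with all arrays and 10 without vehicle replicate 2. On the probe set with the highest mean 0 rose in either fit.

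Nucleolar proteins with several roles did not pass on the probe set with the highest mean. Nolc1, a chaperone of small nucleolar RNA complexes, had 11.00, 10.84, 10.87, 10.68 and 10.78 with DMPT and 10.54, 10.26, 10.68, 10.57 and 10.72 with vehicle. Only the lowest DMPT array lay inside the vehicle range, and the difference was 0.28 ± 0.11 (adjusted p = 0.121). Of the 4 probe sets of Nolc1, 1 rose, by 0.45 ± 0.094 without overlap of the groups (adjusted p = 0.0108). Ncl, which encodes nucleolin, had 13.02, 12.93, 13.01, 12.91 and 13.00 with DMPT and 13.01, 12.11, 12.85, 12.81 and 12.92 with vehicle. Vehicle replicate 2 was 0.70 below the next vehicle array. The difference of 0.23 ± 0.15 (adjusted p = 0.391) was 0.075 ± 0.073 without it. Gnl3, which encodes nucleostemin, had 10.77, 10.81, 10.59, 10.45 and 10.55 with DMPT and 10.53, 10.59, 10.51, 10.47 and 10.48 with vehicle. Its groups overlapped, and the difference was 0.12 ± 0.091 (adjusted p = 0.485).

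**Figure D3:**
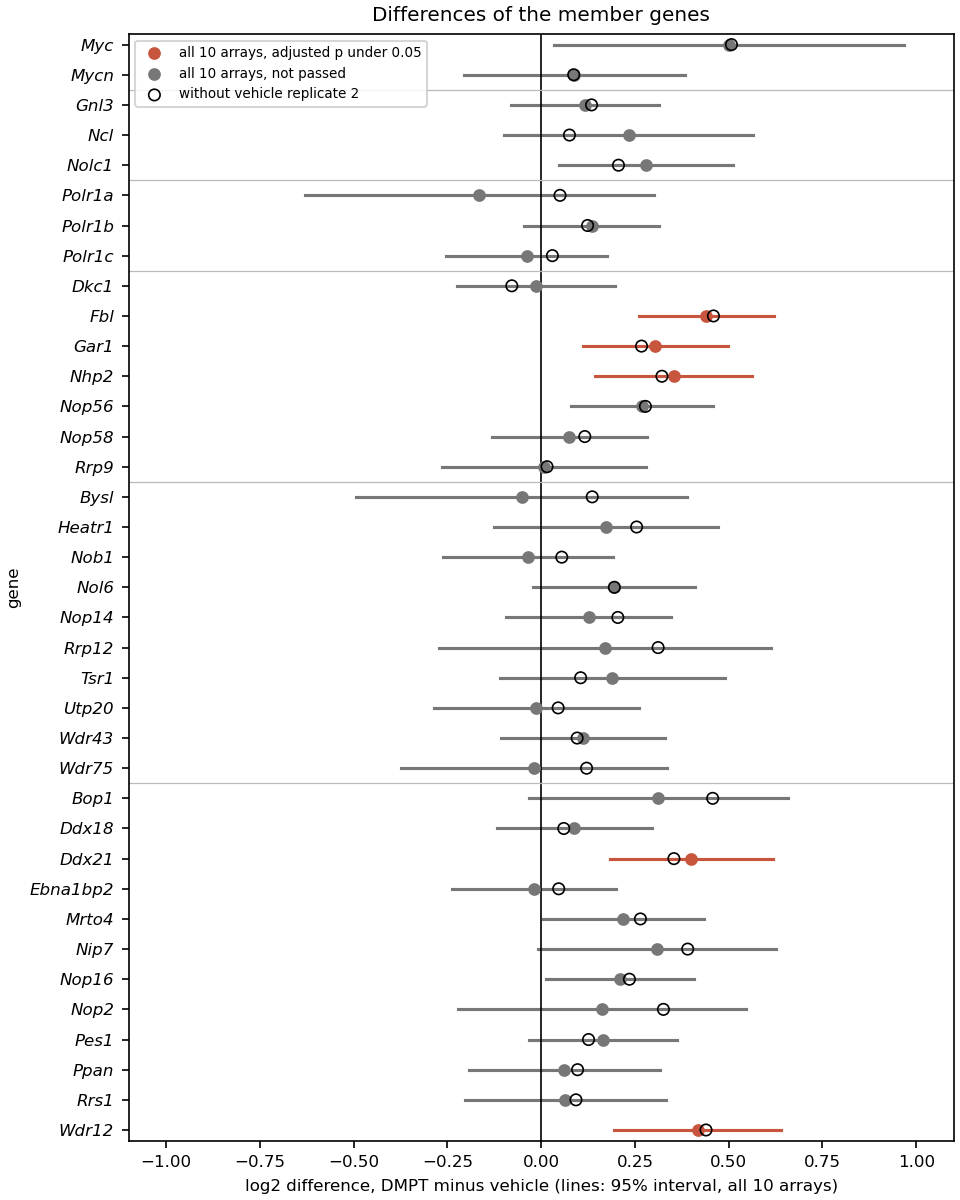
Log2 difference, DMPT minus vehicle, of each of the 37 members with its 95% confidence interval over all 10 arrays (filled points and lines; red where adjusted p is under 0.05) and the difference without vehicle replicate 2 (open points), in the order of the roles. All intervals lie within 2-fold, that is between -1 and 1, and 36 of 37 open points lie above 0.

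Probe sets of the same member did not always give the same call. Of 48 member probe sets 8 rose and 0 fell, against 5.37% and 5.74% of all probe sets. Without vehicle replicate 2 the number was again 8, against 6.86%. Beside the 5 already named, these were 3 secondary probe sets of Wdr43 (0.45 ± 0.093, adjusted p = 0.00971), Nolc1 (0.45 ± 0.094, adjusted p = 0.0108) and Mrto4 (0.50 ± 0.14, adjusted p = 0.0371). The probe set with the highest mean, which stood for the gene, gave 0.11 for Wdr43, 0.28 for Nolc1 and 0.22 for Mrto4. A further probe set of Nolc1 differed by -0.15 ± 0.18. The 3 probe sets of Rrp12 differed by between 0.081 and 0.54, and none of them passed.

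Leaving out each array in turn changed how many members rose, beside a changing share of all genes. Without DMPT replicate 1 the members that rose numbered 3, against 6.03% of all genes. Without DMPT replicates 2, 3 and 4 Fbl alone remained, against 5.51%, 4.84% and 5.3%. Without DMPT replicate 5 there were 4 (5.63%), without vehicle replicate 1 there were 3 (5.98%), without vehicle replicate 3 also 3 (5.99%), without vehicle replicate 4 again 3 (5.46%) and without vehicle replicate 5 there were 4 (5.92%). With the array number of the titles as a block 2 members rose (Fbl and Wdr12), against 6.49% of all genes. Members that fell numbered 0 in each of these fits.

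**Figure D4:**
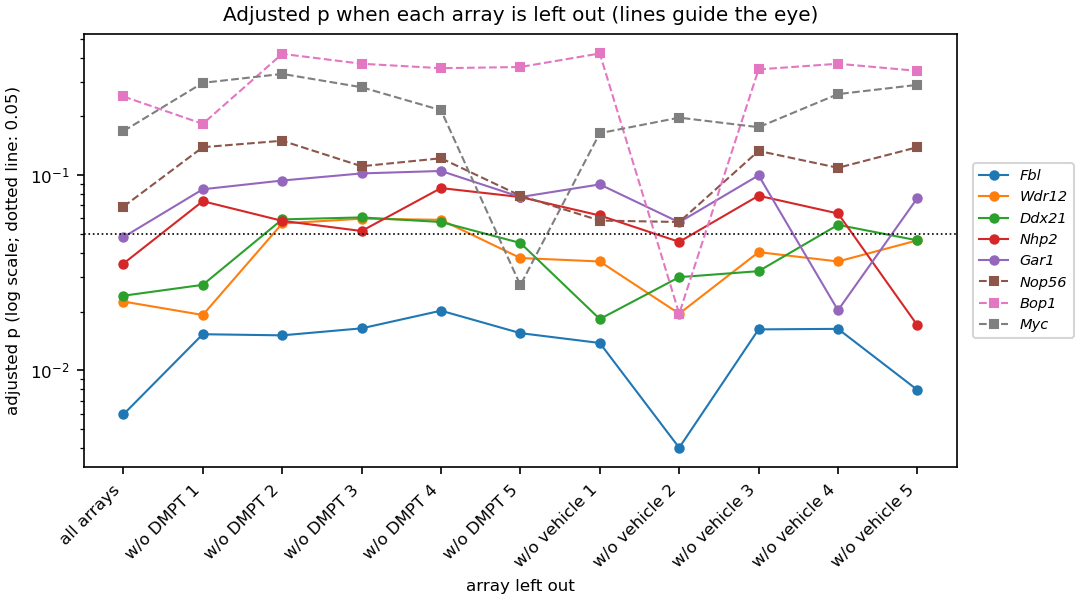
Adjusted p (log axis, dotted line at 0.05) of the 5 members that rose (circles) and of Nop56, Bop1 and Myc (squares) with all arrays and without each array in turn. Fbl stays under the line throughout, Myc crosses it without DMPT replicate 5 and Bop1 without vehicle replicate 2.

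The other genes of the pathway were taken from a list of further processing, assembly and RNA polymerase I factors. Of its 114 measured genes 6 rose (5.26%) and 0 fell, against 7.13% and 6.77% of all genes. The median difference was 0.071, and 78 differences were above 0. Without vehicle replicate 2 the number that rose was 12 (10.5%), against 9.19% of all genes. The 4 with the smallest p were Xrn2, an RNA-degrading enzyme that trims precursor RNA, at 0.48 ± 0.10, Aatf, a small subunit factor, at 0.51 ± 0.11, Urb2, a large subunit factor, at 0.53 ± 0.12, and Nmd3, the export adaptor of the large subunit, at 0.35 ± 0.081. Their adjusted p ran from 0.011 to 0.0186. The RNA polymerase I subunit gene Polr1f and the processome gene Tbl3, named after their values were seen, were the remaining 2.

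Ribosomal protein genes, the products of which the factors above assemble with RNA, did not pass in any of 42 measured cases, with a median of 0.050 and 0 with an unadjusted p under 0.05 in the limma fit. Rpl23a differed by 0.16 ± 0.077 and Rps24 by 0.12 ± 0.075. Many of these genes have near-identical copies in the genome, and 36 of the 78 listed had no probe set with a single symbol. In the network of MYC partners and antagonists, 0 of 19 genes rose or fell by limma (3 had an unadjusted p under 0.05), with a median of 0.0040. Over all genes 13.9% rose or fell. Mxd1, a repressor that competes with MYC for MAX, differed by 0.33 ± 0.12 (adjusted p = 0.112), and Mycl, another MYC paralog, by -0.33 ± 0.12 (adjusted p = 0.113). Without vehicle replicate 2 Mxd3 rose and Mga fell.

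Known MYC target genes outside ribosome biogenesis had a larger median, 0.35. Of 28 measured, 8 rose and 0 fell, against 7.13% and 6.77% of all genes. Without vehicle replicate 2 the number that rose was 14, and the share of all genes that rose was also larger, at 9.19%. Tfrc, the transferrin receptor gene, rose by 1.39 ± 0.11 (adjusted p = 2.83e-05) and the nucleoside diphosphate kinase gene Nme2 by 0.50 ± 0.085 (adjusted p = 0.00355). Among the markers of dividing cells, 18 of which rose, the median difference was 1.13, beside 0.16 for the members. Whether these lists differ from the members was not tested.

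**Figure D5:**
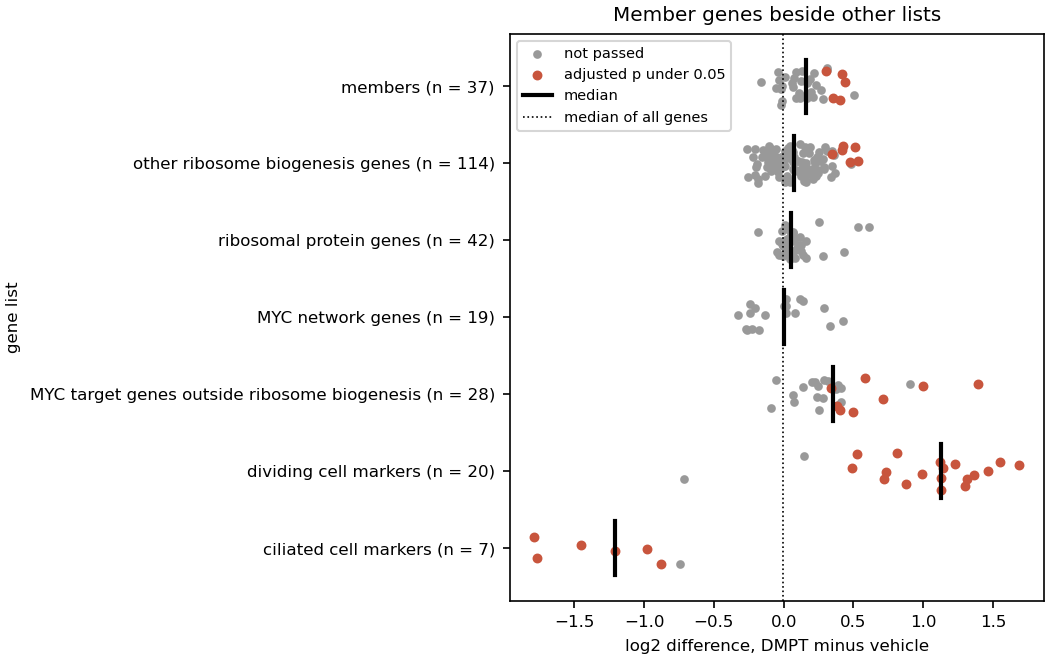
Log2 difference, DMPT minus vehicle, of every measured gene of the member list and of 6 other lists (points, red where adjusted p is under 0.05), with the median of each list (bar) and of all genes (dotted line). The members lie between -0.17 and 0.50, with a median of 0.16, and the markers of dividing cells have a median of 1.13.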

How the data were processed

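The table deposited by the authors gives log2 values, 1 for each probe set of an Affymetrix rat array, made with RMA (background correction, equalised array distributions, a summary per probe set) per the submitters' processing notes with no version named. It holds 10 columns, 1 per animal, with array medians from 8.21 to 8.35. The number of arrays, not read depth, limits the precision. The labels do not say which animals shared a cage, so arrays were treated as independent.

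After 57 control probe sets were set aside, 31042 were fitted in R 4.3.3 by limma 3.58.1 (lmFit, then eBayes, no filter, two-sided p, Benjamini-Hochberg over all of them). Symbols came from the platform annotation: 20826 probe sets had 1 symbol, 436 several and 9780 none. The probe set with the highest mean stood for a gene. The fit was checked on simulated data. Alternatives left out each array, added a block, the RNA quality ratio or array weights, and changed the prior, the filter, the scaling and the probe set rule. The authors' ORIOGEN software was not run.

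Members and lists were chosen with earlier results of these data known. The rule for names gave array values for Myc, Mycn and the 3 members with the smallest p in each other role group, and took the 4 best genes of the other biogenesis list and the 2 best of each further list; Bop1's array values, Polr1f, Tbl3, Mxd3 and Mga were added after their values were seen. Promoters are RefSeq's, build GRCr8.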

Additional observations from a re-analysis of the deposited data

Results flagged for a closer look

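In 6 of 76 groups of 5 arrays, a single array lay far from the other 4, by a gap of more than 0.71 of the group's whole range; chance gives such a gap in about 1 group in 20, or 3.8 here. Vehicle replicate 2 was the array in 3 of the 6: at 12.11 for Ncl, where the other vehicle arrays lay from 12.81 to 13.01, at 10.76 for Nob1 (others 10.27 to 10.35) and at 11.0 for Bop1 (others 10.10 to 10.36). Wdr12 was 9.85 on vehicle replicate 5, with the other vehicle arrays from 10.13 to 10.19. Wdr43 was 10.17 on DMPT replicate 3 (others 10.37 to 10.44), and Wdr75 was 10.75 on DMPT replicate 2 (others 10.30 to 10.40).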

How the results depend on the processing

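The number of members that rose, 5 with all arrays, ran from 1 to 5 when each array was left out; it was 3 with the RNA covariate and 2 (Fbl and Wdr12) with the replicate block. Arrays with the same number were not shown to be paired, since their deviations correlated at -0.067 to 0.23. With array weights 7 rose (9.87% of all genes), with arrays centred on their medians 6 (8.42%), with a trended robust prior 6 (7.79%), after a second quantile normalization 4 (7.62%) and without the dimmest quartile of probe sets 5 of 36 (8.91%). With the mean of the probe sets 7 rose and with the probe set of largest variance 6, for which the share of all genes was not computed. In each of these alternatives 0 members fell. The number of member probe sets that rose, 8, ran from 3 to 8 over the omissions and was 5 with the RNA covariate and 5 with the replicate block. The median member difference stayed between 0.12 and 0.20 over all alternatives. The median of all genes was 0.034 with arrays centred on their medians and 0.0069 after a second quantile normalization, against -0.0052 with the values as deposited.

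The other biogenesis genes that rose numbered 4 to 12 over the omissions, 14 with array weights and 10 with the mean of the probe sets of a gene; 1 fell with that mean and 1 with the probe set of largest variance. In the MYC network 0 or 1 rose and 0 or 1 fell over the omissions, and 1 rose and 1 fell with array weights. MYC targets outside ribosome biogenesis that rose numbered 6 to 14. Ribosomal protein genes stayed at 0. The difference in RNA quality ratio ran from -0.23 to -0.12.

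Where a sign turned, the gene did not pass in any alternative as it was represented there, although a secondary probe set of Nolc1 rose. With the RNA covariate the values were -0.0090 for Mycn, 0.062 for Polr1a, 0.080 for Polr1c, -0.059 for Rrp9, 0.18 for Bysl, 0.041 for Nob1, 0.081 for Utp20, 0.20 for Wdr75 and 0.024 for Ebna1bp2. With array weights they were 0.0016 for Polr1c, 0.13 for Bysl, 0.037 for Nob1, 0.056 for Utp20, 0.095 for Wdr75 and 0.028 for Ebna1bp2. With arrays centred on their medians they were 0.00082 for Polr1c, 0.025 for Dkc1, 0.0042 for Nob1, 0.027 for Utp20, 0.021 for Wdr75 and 0.021 for Ebna1bp2. After a second quantile normalization they were 0.0054 for Dkc1 and 0.016 for Utp20. With the mean of the probe sets they were 0.021 for Wdr75 and -0.14 for Rps24, and with the probe set of largest variance -0.15 for Nolc1 and -0.41 for Rps24. Over the omissions the values ran from -0.28 to 0.050 for Polr1a, -0.082 to 0.030 for Polr1c, -0.078 to 0.045 for Dkc1, -0.066 to 0.069 for Rrp9, -0.16 to 0.14 for Bysl, -0.069 to 0.055 for Nob1, -0.018 to 0.31 for Rrp12, -0.074 to 0.067 for Utp20, -0.11 to 0.12 for Wdr75, -0.057 to 0.047 for Ebna1bp2, -0.0089 to 0.14 for Ppan and -0.011 to 0.13 for Rrs1. The cause of these changes was not tested.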

Other observations

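The array carries a control probe set for the small ribosomal RNA that is made outside the nucleolus by RNA polymerase III. It was not among the probe sets tested. Its log2 values were 7.62, 6.78, 6.97, 7.08 and 7.14 on the DMPT arrays and 7.46, 7.56, 7.48, 7.90 and 7.16 on the vehicle arrays. The groups overlapped, and the difference was -0.395 (two-sided exact permutation test, n = 5 each, p = 0.0794). All values lay below the array medians of 8.21 to 8.35. Whether this probe set follows the amount of that RNA was not tested.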
